A study of Homo sapiens with 16 samples.

Results

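The EGF receptor family was followed through 9 genes: 3 receptors (EGFR, ERBB2 and ERBB3) and 6 ligands (AREG, EREG, HBEGF, TGFA, EPGN and BTC). The members were the rows with these gene names among the 58721 genes of the count and TPM tables, and all 9 had exactly 1 row. RNA came from RT112, a Luminal bladder cancer cell line grown in RPMI, and SCaBER, a Basal line from a squamous bladder carcinoma grown in DMEM, so cell line and medium cannot be told apart. Each line received 10 nM of siFOXA1.1 or siFOXA1.2, 2 siRNAs against the transcription factor FOXA1, or of siControl.1 or siControl.2, with 2 libraries per siRNA and line, 16 in all. This dose is the one in the labels, whereas the unit in the study's methods is ng. No allele or transgene was introduced, the knock-down was transient, every library came from transfected cells, and each type is represented by 1 line. The 2 libraries of a siRNA are numbered as replicates of an experiment batch. Nothing says that they came from separate cultures, so p-values measure the spread between these libraries alone.

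The EGF receptor and its relatives are tyrosine kinases of the cell surface that signal as pairs. Their ligands are made as membrane-bound precursors and are released by metalloproteases, chiefly ADAM17 and ADAM10. ERBB2 has no known ligand of its own, and ERBB3, which has a weak kinase, binds neuregulins and signals with a partner. In the urothelium EGFR is most often associated with basal cells, whereas high ERBB2 and ERBB3 are known from Luminal tumours.

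Library totals ranged from 4528513 to 7604581 counts. A floor of 3 counts was therefore worth 0.394 to 0.662 CPM (the count relative to all counts of its library), and it covers counting error alone. FOXA1 in RT112 had 18.2 to 34.98 CPM in the 4 siControl libraries, 1.32 and 3.24 CPM under siFOXA1.1, and 9.18 and 15.98 CPM under siFOXA1.2. In SCaBER it never exceeded 15 counts. Luminal markers summed to 1043 to 1526 CPM in RT112 siControl libraries and 146 to 189.5 CPM in those of SCaBER, and basal markers to 228 to 368 and 1877 to 3294 CPM. Each line thus had the higher sum for its labelled type, but not every marker followed. Of 7 basal markers 5 were called lower and 1 higher in RT112, against 22.2% and 21.2% of all genes. All 6 luminal markers tested were higher, and KRT20 and UPK3A were at 0 counts in the siControl libraries of both lines. Of 8 markers of immune, endothelial and stromal cells, PTPRC, CD3E and COL3A1 were at 0 counts in all 16 libraries. In the RT112 siFOXA1.1 libraries mitochondrial genes took 25.7% and 28.2% of the counts, against 18.0% to 21.2% in the other 6 RT112 libraries. Luminal markers summed to 631 to 845 CPM in the 4 RT112 siFOXA1 libraries, and the 8 markers of other cells went from 11.7 to 17.7 CPM to 12.8 to 58.1 CPM, with COL1A1 higher under siFOXA1.1 by 2.79 on the log2 scale (edgeR adjusted p = 4.20e-07); their part in the results was not tested. Whether the mitochondrial share had a part in any change given for siFOXA1.1 was not tested beyond leaving these genes out of the totals, which kept the same 5 members called.

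The first comparison asked how the receptors and ligands are set in a Luminal and a Basal line without FOXA1 knock-down. SCaBER carried more of EGFR and of the 4 well-detected EGFR ligands, and RT112 carried more of ERBB2 and ERBB3. Of 6 members with counts in every siControl library, 2 were higher and 4 were lower in RT112, against 43.4% of all 12309 genes called in either direction, 21.2% higher and 22.2% lower. EREG, called lower too, passed the filter on low counts only through SCaBER and so had to differ. The differences of the 6 ran from -4.21 (AREG) to 1.56 (ERBB2) on the log2 scale, and the median of all genes was 0.022. In none of the 6 did the 4 libraries of one line overlap those of the other, as was so for 41.7% of all genes.

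EGFR (ENSG00000146648; chromosome 7, 55019017 to 55211628, GRCh38.p14), the receptor for all 6 ligands studied here, had 115, 112, 134 and 123 CPM in the RT112 siControl libraries. In SCaBER it had 425, 441, 347 and 346 CPM. The log2 difference of RT112 from SCaBER was -1.68 (SE 0.13, edgeR adjusted p = 1.29e-07). All SCaBER libraries thus lay far above all RT112 libraries, and within SCaBER siControl.1 lay above siControl.2.

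ERBB2 (ENSG00000141736; chromosome 17, 39688094 to 39728658), the co-receptor without a ligand, ran the other way. It had 45.3 ± 3.28 CPM in RT112 and 15.4 ± 5.75 CPM in SCaBER (SD, n = 4 each), a log2 difference of 1.56 (SE 0.26, edgeR adjusted p = 0.000197). ERBB3 (ENSG00000065361; chromosome 12, 56080108 to 56103505), the neuregulin receptor, had 103 ± 3.03 CPM in RT112 and 44.1 ± 13.2 CPM in SCaBER (SD, n = 4 each), a log2 difference of 1.23 (SE 0.20, edgeR adjusted p = 0.000128). The lowest ERBB3 value in RT112 was 99.6 CPM and the highest in SCaBER 61.7 CPM.

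The order of the genes was read from TPM, which divides by gene length. In RT112 siControl libraries ERBB3 came first with 22.2 ± 0.296 TPM, ahead of EGFR with 18.95 ± 2.20 TPM without overlap (SD, n = 4 each). AREG (13.6 ± 12.3 TPM) overlapped both EGFR above it and HBEGF (10.99 ± 0.732 TPM) below it, and ERBB2 (8.60 ± 0.693 TPM) and TGFA (6.63 ± 0.991 TPM) followed, each below all libraries of the gene before. EREG, BTC and EPGN had at most 0.66 TPM. In SCaBER AREG led with 324 ± 64.3 TPM, above EGFR with 79.8 ± 11.3 TPM, and EGFR overlapped EREG with 66.0 ± 12.8 TPM, which overlapped HBEGF with 41.3 ± 7.89 TPM. TGFA (14.0 ± 3.73 TPM) overlapped ERBB3 (12.5 ± 4.10 TPM), ERBB2 (3.85 ± 1.53 TPM) overlapped BTC (3.78 ± 3.63 TPM), and EPGN was at 0. A 3' kit reads the ends of transcripts, so division by length can shift this order. Comparisons of one gene between libraries on counts or CPM do not use it, but those on TPM depend on it through the scaling of each library. The siControl means of EGFR in RT112 and SCaBER were 121 and 390 CPM, but 18.95 and 79.8 TPM. On CPM, without division by length, the leading pair turned in both lines: in RT112 EGFR (112 to 134 CPM) lay above ERBB3 (99.6 to 106 CPM), and in SCaBER EGFR (346 to 441 CPM) lay above AREG (159.9 to 246 CPM), both without overlap. The order of these pairs therefore rested on the scale.

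EGFR took 37.995% ± 2.41 of the summed TPM of the 3 receptors in RT112 and 83.1% ± 4.13 in SCaBER (SD, n = 4 each). ERBB3 took 44.7% ± 2.07 in RT112. On CPM EGFR was the larger there, with 44.9% ± 2.52 against 38.2% ± 2.03 for ERBB3, and EGFR took 86.8% ± 3.36 in SCaBER (SD, n = 4 each). Both lines therefore carried all 3 receptors, and the share of EGFR was higher in SCaBER on either scale.

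The ligands AREG, EREG, EPGN and BTC share a stretch of 486 kb on chromosome 4, and the first 3 in order, EPGN, EREG and AREG, lie within 147 kb on one strand. They are shown here because EPGN was counted in RT112 alone, whereas EREG was counted in SCaBER and in 1 library of RT112. The sequences are RefSeq promoters (GRCh38.p14), 250 bases before the start site, 5′ to 3′ on the strand of the gene. Capitals mark TATAAA (the TATA box), TGACGTCA (the full cyclic AMP response element) and TGTTTAC (a forkhead core motif), each searched on both strands.
EPGN (plus strand, chr4:74308220-74308469): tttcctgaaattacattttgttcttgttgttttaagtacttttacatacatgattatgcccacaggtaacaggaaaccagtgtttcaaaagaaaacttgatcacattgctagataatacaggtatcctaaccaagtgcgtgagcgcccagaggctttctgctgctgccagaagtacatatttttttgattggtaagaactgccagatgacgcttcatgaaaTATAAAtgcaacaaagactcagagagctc
EREG (plus strand, chr4:74364895-74365144): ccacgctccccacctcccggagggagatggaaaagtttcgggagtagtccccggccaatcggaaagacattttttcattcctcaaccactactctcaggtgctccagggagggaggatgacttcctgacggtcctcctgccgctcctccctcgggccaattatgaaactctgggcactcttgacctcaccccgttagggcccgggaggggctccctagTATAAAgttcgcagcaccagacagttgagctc
AREG (plus strand, chr4:74444886-74445135): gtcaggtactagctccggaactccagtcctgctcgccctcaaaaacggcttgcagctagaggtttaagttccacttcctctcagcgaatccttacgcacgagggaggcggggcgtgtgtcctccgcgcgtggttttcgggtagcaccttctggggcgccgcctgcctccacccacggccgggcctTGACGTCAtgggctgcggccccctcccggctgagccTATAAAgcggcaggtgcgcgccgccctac
BTC (minus strand, chr4:74794524-74794773): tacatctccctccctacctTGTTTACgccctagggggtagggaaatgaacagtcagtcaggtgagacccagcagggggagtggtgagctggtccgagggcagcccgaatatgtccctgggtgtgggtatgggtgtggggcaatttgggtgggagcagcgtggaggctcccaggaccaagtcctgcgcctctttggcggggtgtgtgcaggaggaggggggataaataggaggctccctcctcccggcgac

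TATAAA began 29 bases before the start site in EPGN and AREG and 32 bases before it in EREG. On the gene strand at 25 to 35 bases before the start, this sequence stood in 2.41% of 27305 promoters. AREG alone of the 4 held TGACGTCA, 65 bases before the start, a sequence in 1.77% of all promoters. BTC alone held TGTTTAC, 231 bases before the start, a sequence in 2.98% of all promoters. The AP-1 motif TGANTCA, searched too, was in none of the 4 (6.60% of all promoters hold it), and of the 8 members with a RefSeq promoter it stood in ERBB2 and in the second of 2 EGFR promoters. These are matches of letters and say nothing of binding.

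AREG (ENSG00000109321; chromosome 4, 74445136 to 74455005) encodes amphiregulin, a low-affinity EGFR ligand. In RT112 it had 3.55 and 2.87 CPM under siControl.1 and 14.5 and 23.9 CPM under siControl.2, and in SCaBER siControl libraries 159.9 to 246 CPM. The log2 difference of RT112 from SCaBER was -4.21 (SE 0.48, edgeR adjusted p = 4.82e-06). EREG (ENSG00000124882; chromosome 4, 74365145 to 74388749), which encodes epiregulin, had 115 to 171 CPM in SCaBER siControl libraries and 0 counts in 7 of the 8 RT112 libraries. Summed over siControl libraries it had 3387 counts in SCaBER and 15 in RT112, all 15 in siControl.1 replicate 1. The ratio of SCaBER to RT112 was 283, with an exact 95% counting interval of 171 to 506. Without that library SCaBER was at least 1042-fold higher, taking 3 counts over the other 3 RT112 siControl libraries as the floor.

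HBEGF (ENSG00000113070; chromosome 5, 140332843 to 140346603), the heparin-binding ligand, had 17.0 ± 1.68 CPM in RT112 and 48.6 ± 7.85 CPM in SCaBER (SD, n = 4 each), a log2 difference of -1.50 (SE 0.21, edgeR adjusted p = 4.23e-05). TGFA (ENSG00000163235; chromosome 2, 70447284 to 70553826), the classical high-affinity ligand, had 16.8 ± 2.49 and 27.1 ± 6.61 CPM (SD, n = 4 each), a log2 difference of -0.67 (SE 0.26, edgeR adjusted p = 0.0469). The TGFA call was the narrowest of the 7: it was lost without any 1 of 5 libraries, with adjusted p up to 0.133.

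BTC (ENSG00000174808; chromosome 4, 74744759 to 74794523), betacellulin, and EPGN (ENSG00000182585; chromosome 4, 74308470 to 74316789), epigen, were the weakest members and did not pass the filter here. BTC had 0, 26, 18 and 43 counts in the SCaBER siControl libraries, and 3 counts in all in those of RT112. EPGN had 1 count over the 8 siControl libraries of both lines. Among the ligands, AREG made up 72.1% ± 1.26 of the summed TPM in SCaBER (SD, n = 4), whereas in RT112 its share was 14.6% to 19.1% under siControl.1 and 50.8% to 62.4% under siControl.2. On CPM the SCaBER share of AREG was 47.8% ± 1.505, and that of EREG was 33.9% ± 1.06 instead of 14.7% ± 0.634 on TPM (SD, n = 4 each).

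**Figure D1:**
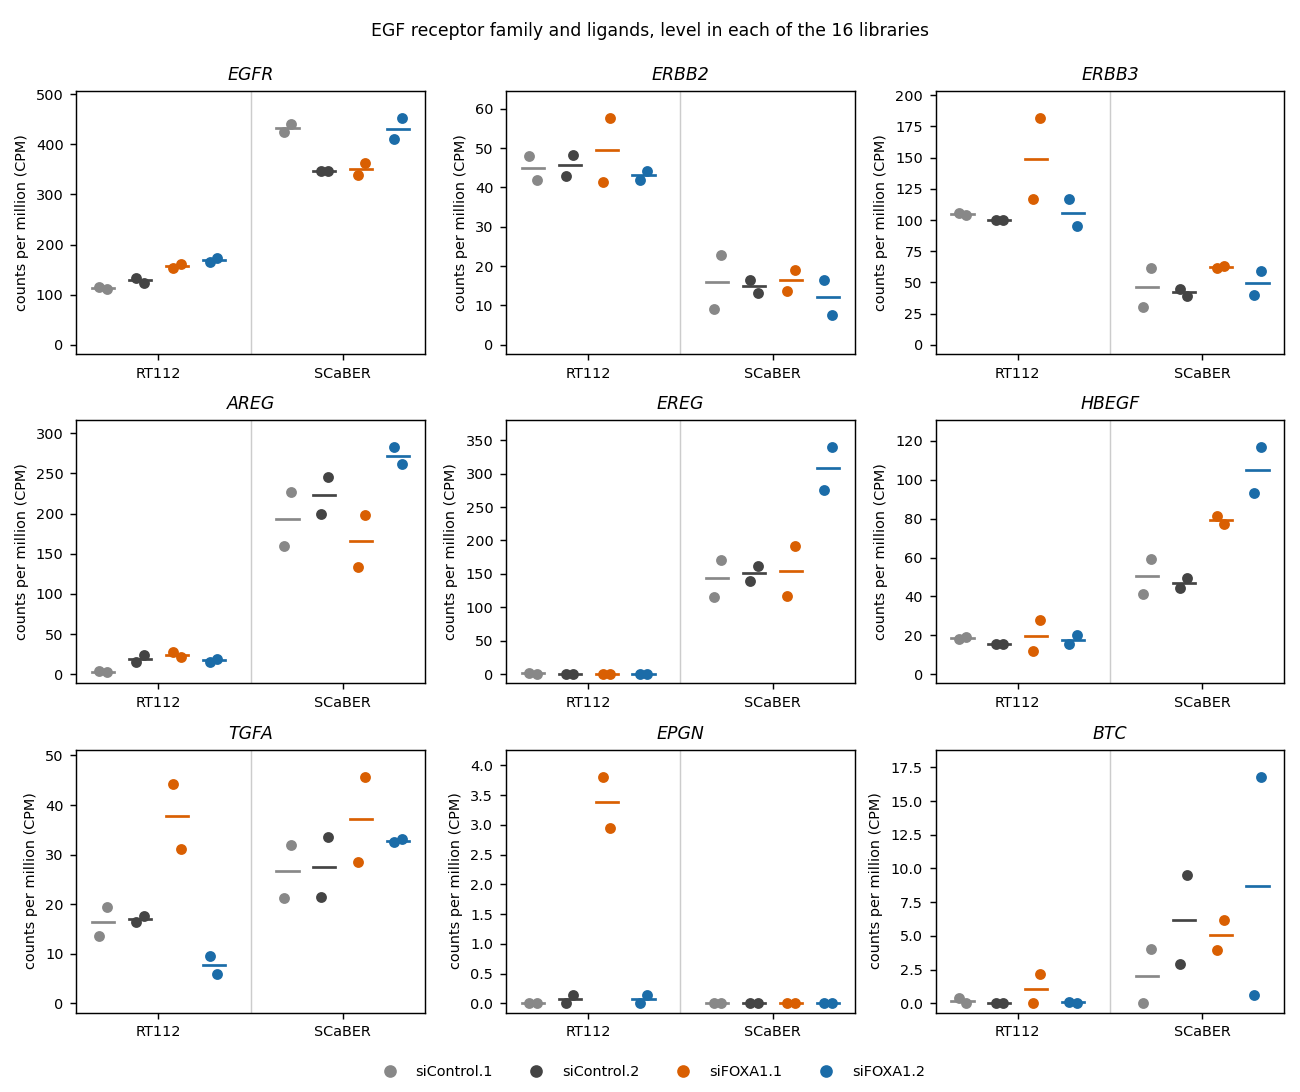
Level of each member in CPM (linear axes from 0, scaled separately per gene) in the 16 libraries. Points are libraries, lines are means of the 2 libraries of a siRNA, and colours mark the siRNA. EGFR, AREG, EREG and HBEGF lie higher in SCaBER, ERBB2 and ERBB3 higher in RT112, and in RT112 the siFOXA1.1 libraries stand above the controls for EGFR, ERBB3, TGFA and EPGN.

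The second comparison asked how each FOXA1 siRNA changed the members in the Luminal line. Under siFOXA1.1 the receptors EGFR and ERBB3 and the ligands AREG and TGFA were called higher in RT112. They were 4 of the 6 members that had counts in every RT112 library, and none was called lower. The AREG call did not hold against siControl.2 alone, as given below. EPGN was also called higher, but it passed the filter on low counts only through the siFOXA1.1 libraries and so had to differ; it is left out of the counts read against all genes. Of all 13462 genes tested, 14.0% rose and 29.1% were called in either direction. Of the genes called, 47.96% were higher, against 37.8% with library totals alone and 22.5% in limma on TPM. The changes of the 6 ran from 0.25 (ERBB2) to 1.74 (AREG) on the log2 scale, and the median of all genes was -0.021. For EGFR, ERBB3 and TGFA, 3 of the 6, both siFOXA1.1 libraries lay above all 4 siControl libraries on CPM, which was so for 17.0% of all genes. On TPM EGFR overlapped the controls. ERBB2 and HBEGF were not called, and EREG and BTC did not pass the filter. Within batches, each siFOXA1.1 library was set against the 2 siControl libraries of the same number, and AREG was higher in 3 of 4 such pairs. EGFR, ERBB3, TGFA and EPGN were higher in 4 of 4. This had to follow from siFOXA1.1 libraries above all siControl libraries, and adds no support.

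EGFR had 153 and 161 CPM under siFOXA1.1, above the 112 to 134 CPM of the siControl libraries. The log2 fold change was 0.51 (SE 0.13, edgeR adjusted p = 0.00575), or 0.56 and 0.45 against siControl.1 and siControl.2 taken alone (adjusted p = 0.0101 and 0.0381). The groups did not overlap on CPM, but on TPM they did. EGFR had 21.69 and 21.48 TPM under siFOXA1.1 and 16.93 to 21.78 TPM in the siControl libraries. The size depended on the scaling, since all genes together fell by 0.301 at the median on the TPM scale and fell by 0.144 with library totals alone. EGFR then changed by 0.185 on log2(TPM + 1) in limma (adjusted p = 0.35) and by 0.383 with library totals (adjusted p = 0.0324). Without siFOXA1.1 replicate 2 the change was 0.436 (adjusted p = 0.0597).

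ERBB3 had 117 and 182 CPM under siFOXA1.1 and 99.6 to 106 CPM in the siControl libraries. The log2 fold change was 0.67 (SE 0.17, edgeR adjusted p = 0.00495). Both libraries were above the controls, but siFOXA1.1 replicate 2 carried most of the rise: without it the change was 0.277 (adjusted p = 0.339), and without replicate 1 it was 0.971. ERBB2 had 41.3 and 57.6 CPM against 41.98 to 48.2 CPM, with overlap, and its change was 0.25 (SE 0.21, edgeR adjusted p = 0.403).

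TGFA had 44.2 and 31.2 CPM under siFOXA1.1 and 13.5 to 19.5 CPM in the siControl libraries. The log2 fold change was 1.29 (SE 0.31, edgeR adjusted p = 0.00317). Both libraries exceeded every control, and the call remained when any 1 library of RT112 was left out (1.04 to 1.49, adjusted p at most 0.0411). In limma on TPM it was 0.874 (adjusted p = 0.0536).

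AREG had 27.2 and 21.2 CPM under siFOXA1.1, next to 3.55 and 2.87 CPM under siControl.1 and 14.5 and 23.9 CPM under siControl.2. The log2 fold change against both controls was 1.74 (SE 0.34, edgeR adjusted p = 0.000584). The controls themselves differed by -2.51 (siControl.1 against siControl.2, SE 0.44, edgeR adjusted p = 0.0035), larger than the change, and AREG was the only called member of 7 in that comparison, where 2.11% of all genes were called. Against siControl.1 alone the change was 2.996 (adjusted p = 4.95e-05), and against siControl.2 alone it was 0.488 (adjusted p = 0.413). A rise of AREG over siControl.2 was therefore not shown.

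EPGN went from 0, 0, 0 and 1 counts in the siControl libraries to 26 and 20 counts under siFOXA1.1. With 46 counts against 1 the ratio of levels was 97.8, with an exact 95% counting interval of 16.7 to 3944. Its edgeR adjusted p of 0.0234 supports no more than these counts, since the 2 siFOXA1.1 libraries alone brought it past the filter, and it was lost in 6 of the 8 fits without 1 library (adjusted p up to 0.142) and in the fit of all 16 libraries (adjusted p = 0.056). EPGN was at 0 counts in all 8 SCaBER libraries. EREG, its neighbour, was at 0 in all 4 RT112 siFOXA1 libraries, and BTC had 0 and 15 counts under siFOXA1.1. HBEGF had 11.7 and 27.7 CPM around controls of 15.4 to 18.9 CPM, a change of 0.35 (SE 0.35, edgeR adjusted p = 0.496).

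The second siRNA, siFOXA1.2, gave another pattern in RT112. No member of 7 passed the threshold in edgeR (3 had an unadjusted p under 0.05, DESeq2 called 1 and limma on TPM 0), where 1.78% of all genes did. EGFR had 166 and 173 CPM, again above every siControl library (8.66% of all genes), and its log2 fold change of 0.51 (SE 0.13, edgeR adjusted p = 0.0527) was the size seen under siFOXA1.1. With the replicate number as a block the adjusted p was 0.0366, and DESeq2 gave 0.0123. The difference between the siRNAs in EGFR was 0.00022 (SE 0.15, edgeR adjusted p = 1).

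TGFA moved the opposite way under siFOXA1.2, with 9.62 and 6.01 CPM below every siControl library (10.7% of all genes). Its change of -1.09 (SE 0.35, edgeR adjusted p = 0.148) did not pass the threshold, but the difference between the siRNAs did: siFOXA1.1 lay 2.37 above siFOXA1.2 (SE 0.39, edgeR adjusted p = 0.000144). ERBB3 had 117 and 95.1 CPM under siFOXA1.2, a change of 0.06 (SE 0.17, edgeR adjusted p = 0.958), and siFOXA1.1 lay 0.61 above siFOXA1.2 (SE 0.20, edgeR adjusted p = 0.0313). These were the 2 members of 7 called between the siRNAs, both higher under siFOXA1.1, against 24.7% of all genes in either direction and 11.4% higher, and the ERBB3 call was lost without siFOXA1.1 replicate 2 (0.216, adjusted p = 0.538) or siFOXA1.2 replicate 2 (0.464, adjusted p = 0.196). Residual FOXA1 was lower under siFOXA1.1 (2.28 ± 1.36 CPM) than under siFOXA1.2 (12.6 ± 4.81 CPM; SD, n = 2 each), and its part in the differences between the siRNAs was not tested.

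AREG had 15.4 and 18.8 CPM under siFOXA1.2, a change of 1.14 (SE 0.35, edgeR adjusted p = 0.121) against both controls. Against siControl.1 alone it was 2.395 (adjusted p = 0.00347) and against siControl.2 alone -0.113 (adjusted p = 0.986), so its direction rested on the control. ERBB2 (41.8 and 44.3 CPM) and HBEGF (15.6 and 19.9 CPM) overlapped the controls, and EPGN had 0 and 1 counts. When the siRNAs of each target were pooled, none of 6 tested members passed in edgeR (1 had an unadjusted p under 0.05, DESeq2 called 0 and limma on TPM 0) and 0.108% of all genes did. On CPM, though not on TPM, EGFR was the 1 member whose 4 siFOXA1 libraries all lay above the 4 siControl libraries (2.65% of all genes). Its pooled change was 0.51 (SE 0.15, edgeR adjusted p = 0.268).

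**Figure D2:**
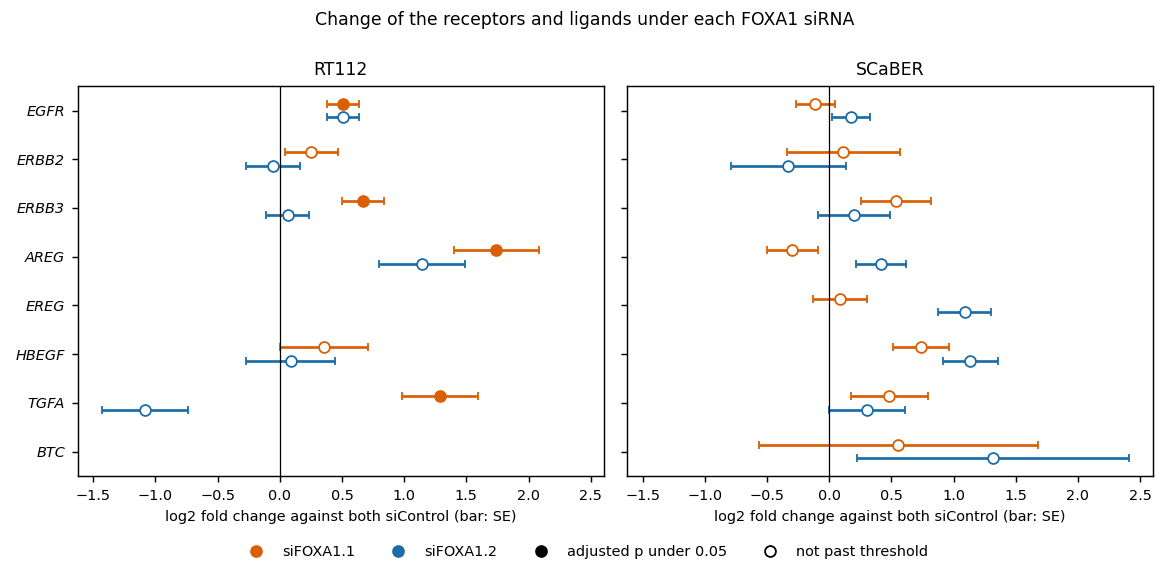
Log2 fold change of each member under siFOXA1.1 and siFOXA1.2 against both siControl siRNAs, from edgeR, with the standard error as bars. Filled points have an adjusted p under 0.05. EGFR, ERBB3, AREG and TGFA are filled for siFOXA1.1 in RT112, and TGFA lies on opposite sides of 0 for the 2 siRNAs. No point is filled in SCaBER. EPGN is left out, and EREG and BTC in RT112 were not tested.

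**Figure D3:**
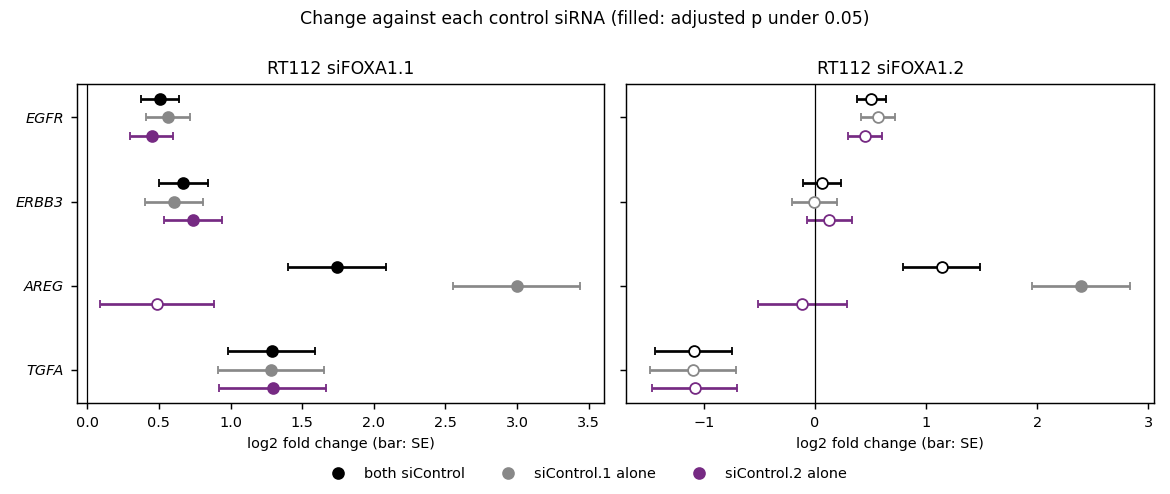
Log2 fold change in RT112 against both control siRNAs, siControl.1 alone and siControl.2 alone, with the standard error as bars and filled points for an adjusted p under 0.05. EGFR, ERBB3 and TGFA change little with the control, whereas AREG ranges from 0.488 to 2.996 under siFOXA1.1 and from -0.113 to 2.395 under siFOXA1.2.

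The third comparison asked the same in SCaBER, where FOXA1 is barely detected. No member of 8 tested was called under siFOXA1.1 by edgeR (1 had an unadjusted p under 0.05, DESeq2 called 1 and limma on TPM 0), where 7.87% of all genes were. None of the 8 was called under siFOXA1.2 by edgeR (2 had an unadjusted p under 0.05, DESeq2 called 2 and limma on TPM 0), where 0.0373% of all genes were. The medians of the 8 were 0.299 and 0.36 on the log2 scale, and those of all genes 0.014 and 0.01. A fall of FOXA1 itself could not be shown at these counts.

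The ligand HBEGF had 41.4, 59.2, 44.1 and 49.5 CPM in the siControl libraries, 81.4 and 77.1 CPM under siFOXA1.1, and 93.3 and 117 CPM under siFOXA1.2. All 4 siFOXA1 libraries lay above all 4 siControl libraries, which was so for 2.43% of all genes, and for siFOXA1.1 alone it was so for 13.4%. The change was 0.74 under siFOXA1.1 (SE 0.22, edgeR adjusted p = 0.0556) and 1.14 under siFOXA1.2 (SE 0.22, edgeR adjusted p = 0.155). With the replicate number as a block the adjusted p was 0.0279 and 0.0285, and in DESeq2 it was 0.0294 and 0.00239. Pooled over siRNAs HBEGF was 0.95 higher (SE 0.21, edgeR adjusted p = 0.26, DESeq2 adjusted p = 0.0143). That it was higher in 4 of 4 pairs of the same batch for either siRNA follows from the lack of overlap and adds no support. None of the 8 was called in the pooled test by edgeR (2 had an unadjusted p under 0.05, DESeq2 called 1 and limma on TPM 0), where 0.00840% of all genes were.

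EREG was highest under siFOXA1.2. It had 115 to 171 CPM in the siControl libraries, 116 and 191 CPM under siFOXA1.1, and 276 and 339 CPM under siFOXA1.2. The siFOXA1.2 libraries lay above all others, with a change of 1.09 (SE 0.21, edgeR adjusted p = 0.155; 0.00489 with the replicate block, 0.00136 in DESeq2). Under siFOXA1.1 it was 0.09 (SE 0.22, edgeR adjusted p = 0.877). The siRNAs differed by -1.001 (siFOXA1.1 against siFOXA1.2, SE 0.25, edgeR adjusted p = 0.0369), the 1 called member of 8 against 4.13% of all genes. That call was lost without siFOXA1.1 replicate 1 (-0.708, adjusted p = 0.0667) and without siFOXA1.2 replicate 1 or replicate 2 (-1.137 and -0.845, adjusted p = 0.0973 and 0.253).

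AREG showed the same order of the siRNAs. It had 134 and 199 CPM under siFOXA1.1 and 282 and 261 CPM under siFOXA1.2, against siControl libraries of 159.9 to 246 CPM. AREG, EREG and HBEGF were the 3 members with both siFOXA1.2 libraries above all controls, as were 6.97% of all genes. The changes were -0.29 (SE 0.21, edgeR adjusted p = 0.456) and 0.41 (SE 0.20, edgeR adjusted p = 0.961). Between the siRNAs the difference was -0.71 (SE 0.24, edgeR adjusted p = 0.116, and 0.0344 with the replicate block).

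EGFR in SCaBER had 339.7 and 363 CPM under siFOXA1.1 and 409.7 and 452 CPM under siFOXA1.2, all within or next to the control range of 346 to 441 CPM. Its changes were -0.11 (SE 0.16, edgeR adjusted p = 0.756) and 0.18 (SE 0.15, edgeR adjusted p = 1). ERBB2 changed by 0.11 and -0.33 and ERBB3 by 0.54 and 0.20 (SE 0.28 to 0.47), and TGFA by 0.48 and 0.31 (SE 0.31), and the lowest edgeR adjusted p among these was 0.2999. BTC ranged from 0.617 to 16.8 CPM within siFOXA1.2 alone, so no change of BTC was detectable. The SCaBER controls differed in no member of 8 in edgeR (0 had an unadjusted p under 0.05, and DESeq2 and limma on TPM called 0), where 0.0671% of all genes were called.

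The last test asked whether a change differed between the lines. For siFOXA1.1 AREG was the 1 called member of 9 in the fit, with a change 2.02 higher in RT112 than in SCaBER (SE 0.32, edgeR adjusted p = 0.00116), against 2.59% of all genes. With siControl.2 as the control in both lines this was 0.875 (adjusted p = 0.298), so it rested on siControl.1. EGFR differed by 0.60 (SE 0.19, edgeR adjusted p = 0.102). For siFOXA1.2 no member was called by edgeR (3 had an unadjusted p under 0.05, DESeq2 and limma on TPM called 0), where 0.0453% of all genes were: TGFA differed by -1.39 (SE 0.47, adjusted p = 0.657), HBEGF by -1.05 (SE 0.41, adjusted p = 0.743) and AREG by 0.72 (SE 0.32, adjusted p = 0.798). The interaction could not be estimated for EREG and EPGN, which were at or near 0 counts in 1 line.

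**Figure D4:**
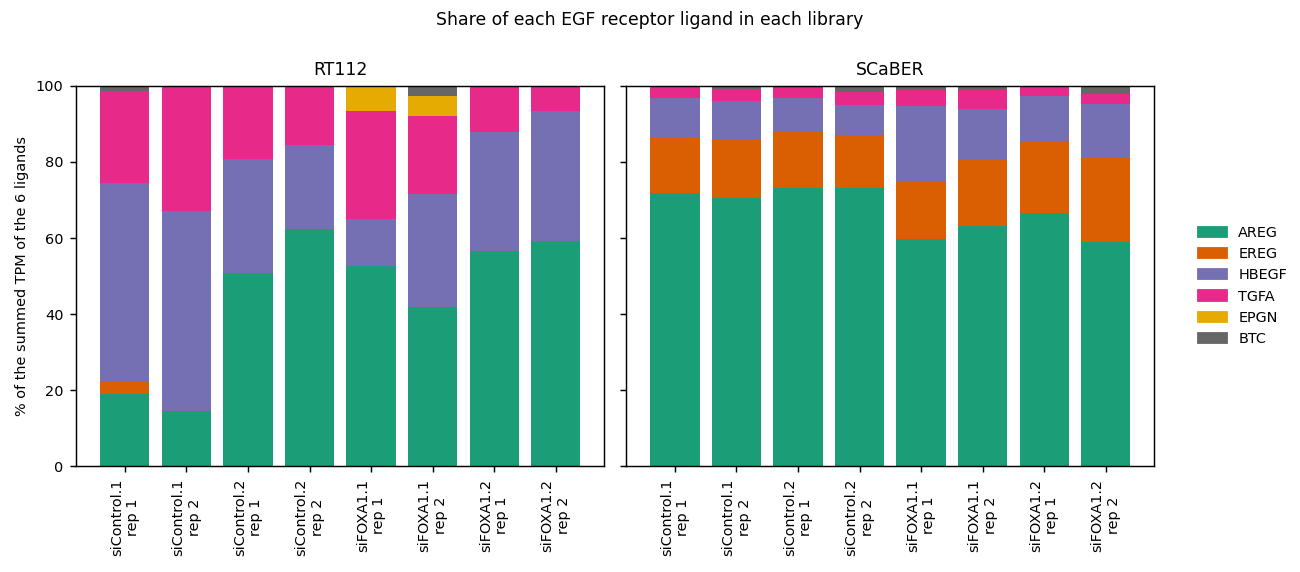
Share of each ligand in the summed TPM of the 6 ligands, as stacked bars from 0 to 100%, 1 bar per library. AREG holds 58.9% to 73.2% of the TPM in every SCaBER library, with EREG and HBEGF next. In RT112 AREG holds 14.6% and 19.1% under siControl.1 and 41.9% to 62.4% elsewhere, and EPGN appears under siFOXA1.1.

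The summed TPM of the 6 ligands in RT112 was 22.1 ± 0.757 under siControl.1, 40.9 ± 7.95 under siControl.2, 53.5 ± 3.10 under siFOXA1.1 and 34.9 ± 3.71 under siFOXA1.2 (SD, n = 2 each). In SCaBER it was 427 ± 127, 471 ± 77.1, 419 ± 116 and 669 ± 12.9 in the same order. The siFOXA1.1 libraries in RT112 and the siFOXA1.2 libraries in SCaBER thus held the highest sums of their lines. HBEGF took 16.6% ± 4.61 of the SCaBER sum under siFOXA1.1 and 13.2% ± 1.66 under siFOXA1.2, against 9.27% ± 1.02 in the siControl libraries (SD, n = 4 for the controls).

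Other ligands and the fourth receptor were mostly silent. Of EGF, NRG1, NRG2, NRG3, NRG4 and ERBB4, 2 passed the filter between the lines. NRG1, the ligand of ERBB3, was at 0 counts in all 8 RT112 libraries and had 914 counts over the SCaBER siControl libraries, so SCaBER was at least 381-fold higher by a floor of 3 counts over the RT112 siControl libraries. ERBB3 was thus highest in the line without NRG1. NRG4 had 8.67 ± 1.69 CPM in RT112 and 2.06 ± 1.98 CPM in SCaBER (SD, n = 4 each; log2 difference 2.07, SE 0.76, edgeR adjusted p = 0.0398), a call lost in 6 of the 8 fits without 1 library (adjusted p up to 0.0984). EGF, NRG1 and NRG4, where they passed the filter, were not called under either FOXA1 siRNA by edgeR. Of all genes, 29.1% (siFOXA1.1) and 1.78% (siFOXA1.2) were called in RT112, and 7.87% and 0.0373% in SCaBER.

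Among genes of ligand release, RHBDF1 and ADAM17 rose and ADAM10 fell under siFOXA1.1 in RT112. Of ADAM10, ADAM17, RHBDF1 and RHBDF2, 2 rose and 1 fell in RT112 under siFOXA1.1, where 29.1% of all genes were called, and the median of the 4 was 0.684. RHBDF1, an inactive rhomboid that escorts ADAM17 to the cell surface, went from 36.0 ± 9.47 CPM (SD, n = 4) to 127 ± 4.17 CPM (SD, n = 2), which is 1.96 on the log2 scale (SE 0.22, edgeR adjusted p = 1.27e-06). ADAM17, the main sheddase of AREG, EREG, HBEGF and TGFA, rose by 0.76 (SE 0.12, edgeR adjusted p = 7.42e-05). ADAM10 fell by 0.86 on the log2 scale (SE 0.14, edgeR adjusted p = 0.000104). In SCaBER RHBDF1 rose as well, from 39.3 ± 4.86 CPM (SD, n = 4) to 103 ± 20.4 CPM (SD, n = 2), by 1.42 (SE 0.24, edgeR adjusted p = 0.00186), and was the 1 called of the 4, where 7.87% of all genes were. Under siFOXA1.2 RHBDF1 had 34.1 ± 14.5 CPM in RT112 and 38.9 ± 8.81 CPM in SCaBER (SD, n = 2 each). None of the 4 was then called in either line, where 1.78% of all genes were in RT112 and 0.0373% in SCaBER. The siRNAs differed in RHBDF1 in both lines, by 2.00 (SE 0.27, edgeR adjusted p = 2.04e-05) and 1.41 (SE 0.29, edgeR adjusted p = 0.0127), the latter lost in 1 of the 8 fits without 1 library (adjusted p = 0.171).

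Of 9 negative regulators of the receptors, 1 rose and 2 fell under siFOXA1.1 in RT112, with a median of -0.232, a share near the 29.1% of all genes called. LRIG1, a membrane protein that promotes degradation of ErbB receptors, went from 127 counts over 4 siControl libraries to 4 counts over 2 siFOXA1.1 libraries, and its relative LRIG3 from 98 to 1. Their adjusted p values in edgeR were 0.0223 and 0.0125, and the LRIG1 call was lost in 2 of the 8 fits without 1 library (adjusted p up to 0.0882). LRIG1 and LRIG3 are the 2 that fell, and both passed the filter on low counts only through libraries other than siFOXA1.1. Their p values therefore support no more than these counts. PTPN1, a phosphatase that acts on EGFR, rose by 1.40 (SE 0.11, edgeR adjusted p = 2.02e-08) to 726 ± 23.6 CPM (SD, n = 2), but its controls differed too, with 207 ± 49.3 CPM under siControl.1 and 431 ± 0.835 CPM under siControl.2 (SD, n = 2 each). Under siFOXA1.2 PTPN1 was the 1 called of the 9, at 0.46 (SE 0.12, edgeR adjusted p = 0.0461), where 1.78% of all genes were called. The call was lost in 3 of the 8 fits without 1 library (adjusted p up to 0.236), and against siControl.2 alone it was -0.035. In SCaBER under siFOXA1.1 PTPN1 rose by 0.66 (SE 0.17, edgeR adjusted p = 0.0254) and CBLC, an epithelial ubiquitin ligase of EGFR, fell by 1.96 (SE 0.57, edgeR adjusted p = 0.048), where 7.87% of all genes were called. Without 1 library the PTPN1 call was lost in 3 of 8 fits (adjusted p up to 0.1003) and the CBLC call in 5 of 8 (adjusted p up to 0.127). None was called there under siFOXA1.2 (0.0373% of all genes).

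Of 22 signal transduction genes, 5 rose and 4 fell under siFOXA1.1 in RT112, with a median of 0.04, where 29.1% of all genes were called and 14.0% rose. MAPK3, which encodes the kinase ERK1, fell by 1.01 (SE 0.23, edgeR adjusted p = 0.00233). NRAS rose by 0.94 (SE 0.31, edgeR adjusted p = 0.0244), a call lost in 3 of the 8 fits without 1 library (adjusted p up to 0.283). Under siFOXA1.2 none of the 22 was called in either line by edgeR, where 1.78% of all genes were in RT112 and 0.0373% in SCaBER.

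Of 15 genes that respond to ERK, 14 were tested, and 1 rose and 5 fell under siFOXA1.1 in RT112, with a median of -0.474, where 29.1% of all genes were called. ETV4, an ETS factor, fell by 2.09 (SE 0.37, edgeR adjusted p = 0.000207), and DUSP4 and DUSP6, phosphatases induced by ERK that act on it, fell by 1.60 (SE 0.40, edgeR adjusted p = 0.0047) and by 1.30 (SE 0.20, edgeR adjusted p = 5.38e-05). EGR1, the 1 that rose, had a mean of 15.6 counts, under the limit for naming, and is named after its values were seen. DUSP6 had 105 ± 2.96 CPM in the siControl libraries (SD, n = 4), 39.5 ± 16.0 CPM under siFOXA1.1 and 99.2 ± 7.43 CPM under siFOXA1.2 (SD, n = 2 each). ETV4, DUSP4 and DUSP6 thus fell in the RT112 libraries in which EGFR, ERBB3 and TGFA rose, while EGR1 rose and 8 of the 14 were not called. In SCaBER CCND1, cyclin D1, fell under siFOXA1.1 by 0.69 (SE 0.16, edgeR adjusted p = 0.013) and was the 1 called of 14, where 7.87% of all genes were. In none of these lists was a gene called in SCaBER under siFOXA1.2 by edgeR, as were 0.0373% of all genes. There DESeq2 and the replicate block called the ligands named above.

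**Figure D5:**
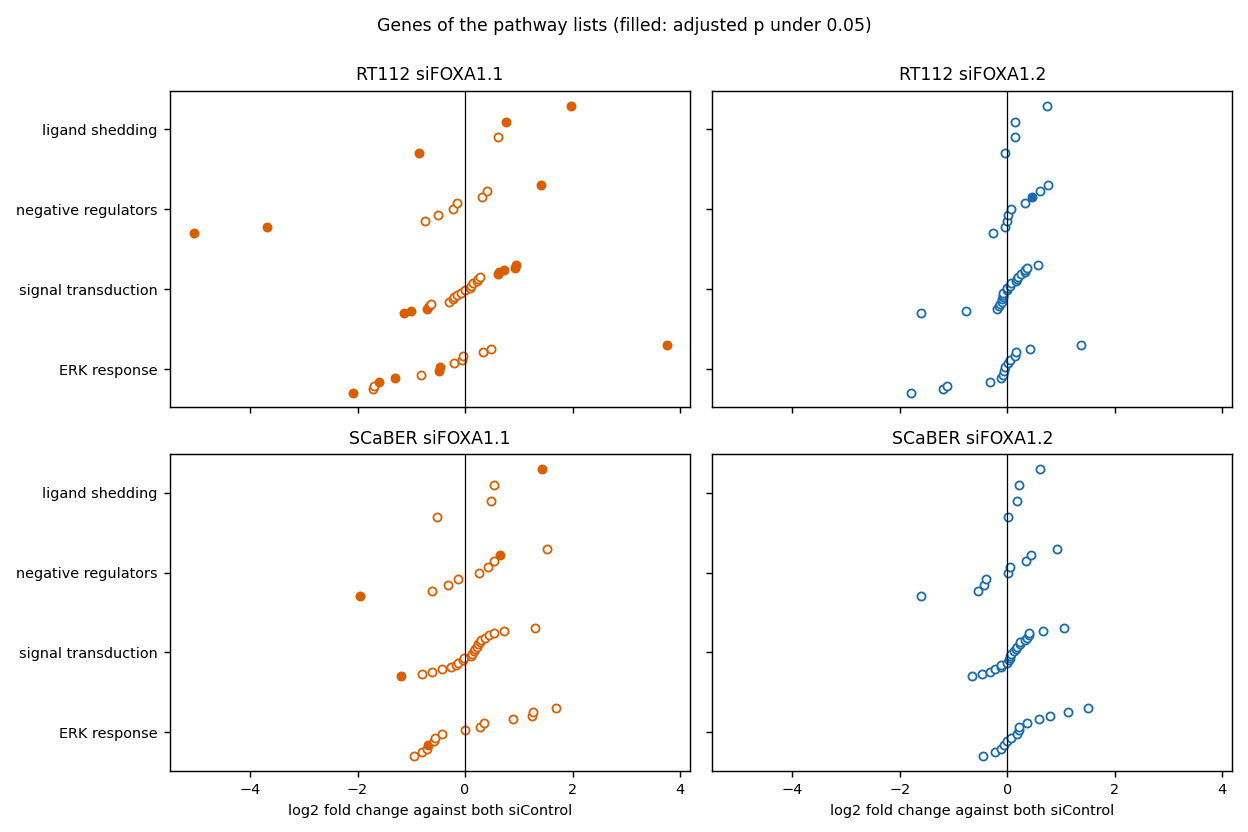
Log2 fold change against both siControl siRNAs of every tested gene in 4 lists, 1 point per gene in order of its change, for each line and siRNA. Filled points have an adjusted p under 0.05. In RT112 under siFOXA1.1 the called genes of ligand release and signal transduction lie on both sides of 0 and 5 of the 6 called ERK response genes lie below it. Under siFOXA1.2 only PTPN1 in RT112 is filled.

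Between the lines, without FOXA1 knock-down, 6 of 13 tested ERK response genes were higher and 3 lower in RT112, where 43.4% of all genes were called, 21.2% higher and 22.2% lower. FOSL1, an AP-1 subunit, was lower by 4.85 on the log2 scale and DUSP6 higher by 1.98 (SE 0.28 and 0.16, edgeR adjusted p = 5.58e-09 and 1.56e-07). EGR1, 1 of the 3 lower, differed by -6.21, but it passed the filter on low counts only through SCaBER and so had to differ. Of 22 signal transduction genes 7 were higher and 2 lower in RT112, and of 4 genes of ligand release 2 were higher and 1 lower. Of 9 negative regulators 2 were higher and 0 lower, RNF41 by 1.17 and ERRFI1 by 0.87 (SE 0.24 and 0.21, edgeR adjusted p = 0.00113 and 0.0038). STAT3 was lower by 1.90, and PLCG1 and the adaptor SHC1 were higher by 1.46 and 1.43 (SE 0.16, 0.24 and 0.16, edgeR adjusted p = 2.68e-07, 0.000151 and 4.51e-06). RHBDF2 was lower by 1.35 and ADAM17 higher by 1.18 (SE 0.27 and 0.15, edgeR adjusted p = 0.000933 and 1.33e-05). SCaBER thus had more EGFR, AREG, HBEGF, TGFA and FOSL1 than RT112, and less DUSP6. More of the called ERK response genes were lower in SCaBER than higher, 6 against 3.

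The genes whose levels ran most like 3 members were sought over the 16 libraries after subtracting the mean of each line, among 9705 other genes. EGFR was nearest to TCF7L1 (Pearson r = 0.878), SOX9 (0.862) and CD44 (0.809). ERBB3 was nearest to DNAJC1 (0.869), KCTD10 (0.849) and SYF2 (0.816). AREG was nearest to SMYD2 (0.905), TMSB10 (0.869) and TOMM20 (0.867). These values describe 16 libraries that share siRNAs and batches, and carry no test.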

How the data were processed

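3' mRNA sequencing of 16 libraries was used. Raw counts per gene and TPM were deposited by the authors. The labels and pipeline configuration name TrimGalore 0.6.2, STAR 2.6.1a, hg38 and GENCODE 29, whereas the methods of the study name hg19. CPM were computed here from the counts and library totals.

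Comparisons used edgeR 4.0.16 (R 4.3.3; TMM, filterByExpr, quasi-likelihood test) on the counts with Benjamini-Hochberg adjustment over all genes tested and a threshold of 0.05, without a replicate term. All siRNAs of 1 line entered 1 fit, and the pooled, between-line and interaction tests had fits of their own. Alternatives were DESeq2 1.42.0, limma 3.58.1 on log2(TPM + 1), other scalings, filters and controls, a replicate block, and fits without 1 library. Scripts were tested on simulated data. Replicate numbers mark an experiment batch in the labels, so they pair libraries. Deviations of same-numbered libraries from their group means correlated at -0.005 to 0.009 in RT112 and -0.002 to 0.162 in SCaBER. All members were named. Up to 3 called genes per pathway list with a mean of at least 20 counts were named by size of change. The results of 1 gene that this rule selects are not reported here. Members and lists were chosen with earlier results of these data known. The counts and TPM of other genes were used for adjustment and background alone.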

Additional observations from a re-analysis of the deposited data

Results flagged for a closer look

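In RT112, 3 ligands had 1 siControl library apart from the other 3. EREG had 1.97 CPM (15 counts) in siControl.1 replicate 1 and 0 in the others. Of 15 genes with at least 50 CPM in every SCaBER siControl library and at most 1 count in each of the other 7 RT112 libraries, EREG alone had more than 1 count in that library, and 13 had 0. BTC had 0.394 CPM (3 counts) in the same library, and EPGN had 0.139 CPM (1 count) in siControl.2 replicate 2, where the others were at 0. Among the RT112 siFOXA1 libraries BTC had 2.21 CPM (15 counts) in siFOXA1.1 replicate 2 and at most 0.146 CPM elsewhere. Gaps were compared with the range of 4 libraries (Dixon's test at the 95% level) in 36 groups, which chance passes in about 1 in 20 groups of continuous values. That rate does not hold here: where the other 3 libraries are at 0, any count passes, so these 4 values are given as counts and carry no test.

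The change of AREG under siFOXA1.1 differed between the lines by 2.02 on the log2 scale (edgeR adjusted p = 0.00116), and with siControl.2 alone as the control by 0.875 (adjusted p = 0.298).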

How the results depend on the processing

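Of 1824 alternative values for single genes, 1657 kept their direction and side of the threshold, 110 lost a call, 34 gained one and 23 turned direction. Of 231 alternative counts of called members, 38 moved by over 1.5 times. The cause of these moves was not tested.

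Under siFOXA1.1 in RT112, 5 members were called with EPGN counted, but 2 in limma on TPM, 3 in the fit of all 16 libraries, 3 with siControl.2 alone, and 2 to 5 without 1 library. Under siFOXA1.2 in RT112 0 became 1 with no filter, DESeq2, the replicate block, no mitochondrial genes, all 16 libraries or siControl.1 alone, and 0 to 3 without 1 library. Between the siRNAs in RT112, 2 became 1 with library totals alone or all 16 libraries, and 1 to 2 without 1 library. Under siFOXA1.1 in SCaBER 0 became 1 with no filter, DESeq2 or the replicate block, and 0 to 1 without 1 library. Under siFOXA1.2 in SCaBER 0 became 2 with the same 3 settings, and 0 to 2 without 1 library. Between the siRNAs in SCaBER 1 became 0 in limma on TPM and with all 16 libraries, 2 with the replicate block, and 0 to 2 without 1 library. Pooled in SCaBER, 0 became 1 with no filter or DESeq2. The AREG interaction was 1 of 2 calls in DESeq2 and limma, and 0 were called with siControl.2 alone. The replicate block gave 5 calls, printed beside their results, and changed no other.

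Directions turned for members that were not called. In RT112 under siFOXA1.1, limma on TPM gave -0.069 for ERBB2 and -0.079 for HBEGF. Under siFOXA1.2, siControl.1 alone gave -0.004 for ERBB3 and -0.063 for HBEGF, and siControl.2 alone gave -0.113 for AREG and, for the called gene PTPN1, -0.035. In SCaBER under siFOXA1.1, siControl.2 alone gave 0.039 for EGFR and -0.252 for BTC. The AREG interaction for siFOXA1.2 was -0.423 with siControl.2 alone. Without 1 library, RT112 siFOXA1.1 gave ERBB2 -0.043 to 0.493 and HBEGF -0.439 to 0.857. Without 1 library, RT112 siFOXA1.2 gave ERBB3 -0.092 to 0.201, HBEGF -0.103 to 0.255 and EPGN -1.116 to 2.282. Without 1 library, SCaBER siFOXA1.1 gave ERBB2 -0.131 to 0.5 and EREG -0.266 to 0.37. Without 1 library, SCaBER siFOXA1.2 gave ERBB3 -0.099 to 0.485, ERBB2 -0.998 to 0.127 and BTC -2.448 to 4.605.

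All genes called under siFOXA1.2 numbered 239 in RT112 (57 in limma to 383 in DESeq2) and 5 in SCaBER (4 in limma to 42 with no filter). Those under siFOXA1.1 in SCaBER numbered 1055 (550 in limma to 1442 in DESeq2). With 2 libraries per siRNA and 3 counts worth up to 0.662 CPM, changes of EPGN, BTC and of EREG in RT112 were limited by depth.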
